A study of Mus musculus with 8 samples.

Results

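The CD3 chain genes Cd3e, Cd3d, Cd3g and Cd247 are 4 of the 21779 mouse protein-coding genes examined, and they were taken by name. Every Smad4 peak that met one of their RefSeq gene bodies or the 10 kb on either side, here called the territory of the gene, was collected from 4 ChIP-seq libraries. ChIP-seq sequences the DNA that an antibody, here against Smad4, pulls down from fixed chromatin. The cells were CD4+ T cells of spleen and lymph nodes from mice on the C57BL/6 background, activated and sampled 12 h into culture with IL6 and a TGFbR inhibitor. The 2 wild-type (WT) libraries were labelled female. The 2 knockout (KO) libraries had the genotype CD4cre;Smad4fl/fl, in which a Cre recombinase under Cd4 control removes the floxed Smad4 allele in T cells, and were labelled a pool of both sexes (replicate 1) and male (replicate 2). Sex and genotype therefore cannot be told apart. Age, and whether the WT animals carried the Cre, were not given in the labels. All 4 libraries shared the cytokine, the inhibitor and the antibody, so no library without the inhibitor stands beside them.

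CD3 chains are the signalling part of the T cell antigen receptor. The receptor's own antigen-binding chains have almost no cytoplasmic tail, and the signal is passed on by CD3 epsilon (Cd3e), CD3 delta (Cd3d), CD3 gamma (Cd3g) and the zeta chain (Cd247), whose tyrosine motifs are phosphorylated by the kinase Lck and then bound by the kinase Zap70. The epsilon chain pairs with either delta or gamma, and zeta forms a homodimer that limits assembly of the complex at the cell surface. Smad4, the shared partner of the receptor-regulated SMADs, binds DNA at short CAGAC or GC-rich elements and usually acts with other transcription factors.

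Cd3g, Cd3d and Cd3e lie side by side on chromosome 9, and Cd247 lies alone on chromosome 1. Cd3g and Cd3d are transcribed away from each other from start sites 1355 bp apart, and Cd3e starts 27825 bp from Cd3d. The RefSeq promoter windows (mm10, GRCm38.p6, 250 bases before to 50 after the start) of Cd3g, Cd3d and Cd3e are shown because each was met by a peak in both WT libraries. They read 5′ to 3′ on the strand of the gene, and capitals mark CAGAC or GGCGC on either strand (GTCTG and GCGCC are the reverse complements).
Cd3g (chr9:44980382-44980681, minus strand): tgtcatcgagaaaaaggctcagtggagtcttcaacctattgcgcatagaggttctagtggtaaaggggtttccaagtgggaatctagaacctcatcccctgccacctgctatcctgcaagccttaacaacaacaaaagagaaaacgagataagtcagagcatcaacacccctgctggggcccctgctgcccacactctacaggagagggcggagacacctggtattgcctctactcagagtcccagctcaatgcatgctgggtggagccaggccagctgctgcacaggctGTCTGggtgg
Cd3d (chr9:44981536-44981835, plus strand): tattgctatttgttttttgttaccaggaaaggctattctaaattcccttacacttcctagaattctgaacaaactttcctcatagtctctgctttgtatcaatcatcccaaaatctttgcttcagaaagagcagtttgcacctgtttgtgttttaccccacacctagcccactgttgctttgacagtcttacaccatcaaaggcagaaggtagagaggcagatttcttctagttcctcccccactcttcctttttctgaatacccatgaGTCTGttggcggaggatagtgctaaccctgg
Cd3e (chr9:45009562-45009861, minus strand): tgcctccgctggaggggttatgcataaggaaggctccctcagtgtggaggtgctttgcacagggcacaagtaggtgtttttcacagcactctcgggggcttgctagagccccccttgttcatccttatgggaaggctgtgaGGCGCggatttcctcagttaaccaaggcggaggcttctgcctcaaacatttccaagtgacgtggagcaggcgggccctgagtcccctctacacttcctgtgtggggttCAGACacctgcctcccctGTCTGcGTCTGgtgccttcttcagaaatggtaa
In the Cd3e window, 3 CAGAC matches lay around the start site, with first bases at positions -1, 18 and 24, where 1 is the start site itself. The Cd3d and Cd3g windows held 1 CAGAC match each, both just inside the gene, and the Cd247 window (chr1:165788431-165788730), which no peak met, held 2. CAGAC on either strand occurs in 48.4% of the 21263 promoter windows of protein-coding genes, so its presence at all 4 genes does not set them apart. GGCGC, present in 46.7% of windows, was found once at Cd3e and not in the other windows.

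Peak lists were deposited per library, with positions and no height or score. WT replicates 1 and 2 held 27120 and 19792 peaks, and KO replicates 1 and 2 held 564 and 424. Read depth is unknown. Peaks of the WT lists that shared at least 1 bp were merged. A merged region with peaks of both WT lists is called reproducible, and one that also met no peak of either KO list is called WT-only. Where the text gives WT 1 and WT 2 values in that order, they belong to replicates 1 and 2. A list of peaks from a cell population does not separate binding in more cells from stronger binding in each cell.

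All 4 CD3 chain genes had WT-only regions in their territories: 4 at Cd3g, 3 at Cd3d, 3 at Cd3e and 4 at Cd247. Of all protein-coding genes, 44.3% had at least 1. Because 3 regions lay in the territories of both Cd3g and Cd3d, the distinct regions numbered 12 reproducible ones, of which 11 were WT-only and 1, inside Cd247, was also called in both KO libraries. Resting on 1 WT list, the WT-only count was 17 without WT replicate 1 and 20 without WT replicate 2, and that of Cd247 alone was 9 without either. Of the 12 regions, 10 met the body of a CD3 chain gene and 2 lay outside. The files give no strand or exon, and the gene table gives outer bounds only, so exons and introns were not separated.

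The start sites of Cd3g and Cd3d were covered by 1 region of 2588 bp (chr9:44979836-44982423). In WT replicate 1 it consisted of a peak of 1290 bp over the Cd3g start and a peak of 660 bp over the Cd3d start. In WT replicate 2 a single peak of 1860 bp ran across both starts and the sequence between them. The Cd3g promoter window was covered over all 300 bases in both WT libraries, and the Cd3d window over 72 bases in WT replicate 1 and 300 in WT replicate 2. Neither KO library had a peak there. By the summed width of its peaks the region ranked 364 among the 16501 reproducible regions of the genome, within the widest 2.21%.

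A second wide region lay over the far end of Cd3d (chr9:44985283-44987466, 2184 bp), with its centre 4.59 kb downstream of the Cd3d start. Here the split between libraries was the other way round. WT replicate 1 had 1 peak of 1952 bp, and WT replicate 2 had peaks of 616 and 1214 bp with a short gap. The summed widths, 1952 and 1830 bp, were close to those of the region at the start sites (1950 and 1860 bp), and this region ranked 374 of the same 16501. KO peaks were called at neither of these regions. With a rule that asks for peak centres within 100 bp, Cd3d had 0 WT-only regions.

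Cd3g held 1 more region within its body, 1.38 kb downstream of its start (chr9:44978704-44979408). Its peaks of 524 bp in WT replicate 1 and 242 bp in WT replicate 2 overlapped by only 61 bp, and the second stood at the smallest width of its list. A narrower region lay 2.42 kb beyond the end of Cd3g (chr9:44966728-44967154, peaks of 366 and 374 bp), between Cd3g and Ube4a, a gene for a ubiquitin ligase. WT replicate 1 alone had a peak of 362 bp over the Ube4a promoter window, inside the Cd3g territory. The nearby regions are thus narrow, and both wide regions of the cluster sit at the ends of Cd3d.

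**Figure D1:**
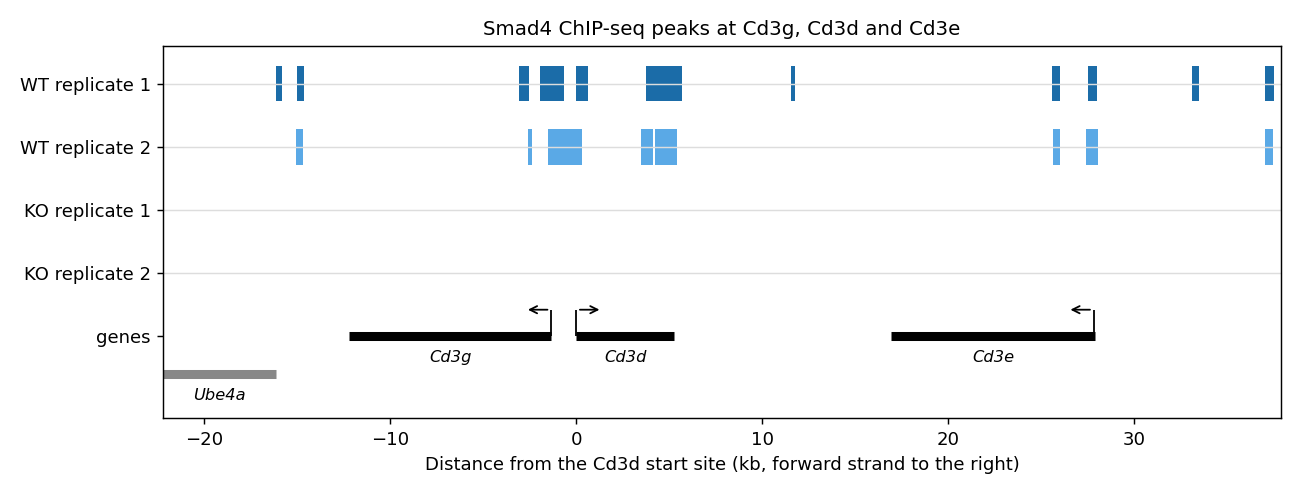
Smad4 peaks around Cd3g, Cd3d and Cd3e in each library, drawn to scale against distance from the Cd3d start site in kb. Coloured blocks are peaks, black bars gene bodies, arrows the direction of transcription, and the grey bar the neighbour Ube4a. WT replicate 1 has 11 peaks and WT replicate 2 has 8, while both KO rows are empty.

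Cd3e had 3 WT-only regions, 440 to 672 bp wide. One covered its start site (chr9:45009182-45009853), with peaks of 490 bp in WT replicate 1 and 672 bp in WT replicate 2 whose centres were 32 bp apart. These peaks covered 233 and 292 of the 300 bases of the promoter window printed above, including its 3 CAGAC matches. A second lay 2.02 kb into the gene (chr9:45007372-45007811, peaks of 434 and 366 bp). The third lay 9.16 kb upstream of the gene body (chr9:45018821-45019326, peaks of 506 and 408 bp), close to the edge of the territory. WT replicate 1 alone had 2 further peaks in the Cd3e territory, of 240 and 366 bp. No KO peak was called at Cd3e, Cd3d or Cd3g.

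At Cd247, the zeta chain gene, all 5 reproducible regions lay inside the gene. The RefSeq gene body begins at 165779952, and the only promoter window of the gene in the RefSeq table has its start site 8.73 kb further in, at 165788681. Distances at Cd247 are counted from this start site. No peak of any library met that window. Near the outer bound of the gene, WT replicate 1 alone had a peak of 506 bp that began 0.449 kb inside it. The nearest peak, of WT replicate 1 alone, began 1109 bp downstream of that start, and the nearest reproducible region 12171 bp downstream. The widest region of all 4 genes had its centre 14.2 kb downstream of the start site (chr1:165801331-165804529, 3199 bp). Its WT peaks were 2842 and 2928 bp wide, and it ranked 80 of the 16501 reproducible regions, within the widest 0.485%. A narrow WT-only region (chr1:165800852-165801241, peaks of 390 and 242 bp) stood just upstream of it.

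Both KO libraries had their only Cd247 peak inside this widest region. The KO replicate 1 peak (chr1:165801760-165802141) was 382 bp wide and lay wholly within the KO replicate 2 peak (chr1:165801724-165802143), which was 420 bp wide. Their centres were 17.0 bp apart, and they stood for 11.9% and 13.1% of the length of the WT region. KO peaks were narrow throughout, with median widths of 318 and 294 bp in replicates 1 and 2. Of these lists, 31.9% and 13.0% of the peaks were at least as wide as the Cd247 peak. Of all protein-coding genes, 2.42% had a region of either KO list in their territory and 0.56% had one of both lists. Across the genome, KO peaks fell on 619 of the 16501 reproducible regions (3.75%), and on 193 of them (1.17%) in both KO lists. A reproducible region that met a KO peak lay in the territory of 1.98% of protein-coding genes. Among those 619 regions it ranked 22 by summed peak width. Smad4 protein left in the KO cells was not measured, and its part in these peaks was not tested.

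The remaining regions of Cd247 lay further downstream and were WT-only. The region 56.5 kb from the start site (chr1:165844507-165845944) had peaks of 1438 and 1250 bp, with centres 6.00 bp apart, and overlapped the long non-coding RNA gene Gm32999 as well. The regions at 24.2 kb (chr1:165812681-165813178) and 65.2 kb (chr1:165853666-165854116) were narrow, with peaks of 498 and 424 bp at the former and 306 and 376 bp at the latter. Outside these regions each WT library had 5 peaks of its own. Those of WT replicate 1 were 240 to 652 bp wide and those of WT replicate 2 were 242 to 366 bp wide. Around the start site the libraries thus had peaks that did not meet, such as the peak of 652 bp in WT replicate 1 centred 1.43 kb downstream and the peak of 366 bp in WT replicate 2 centred 2.37 kb downstream.

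**Figure D2:**
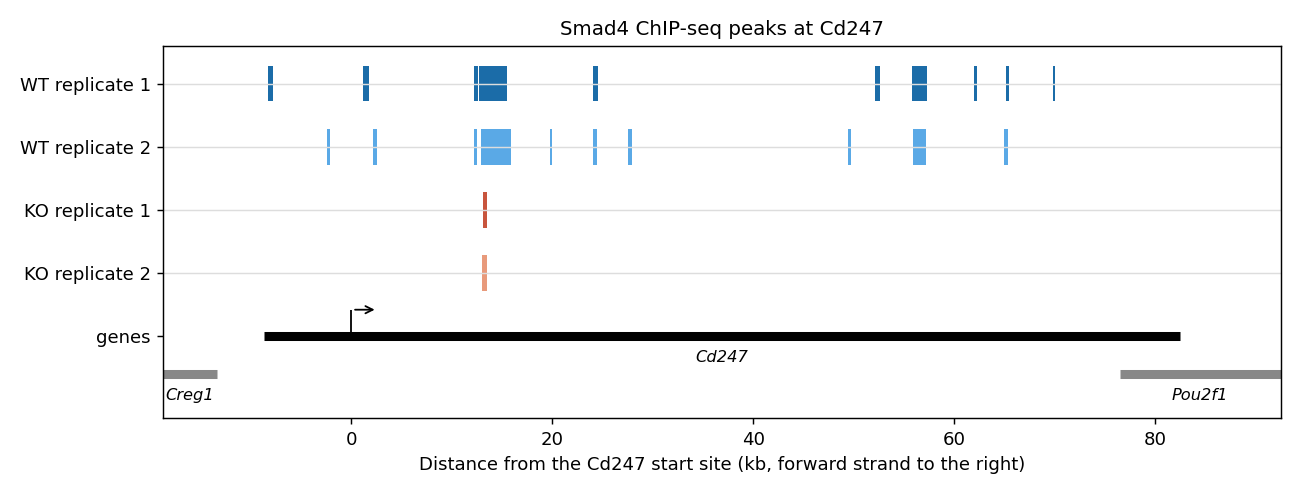
Smad4 peaks around Cd247 in each library, drawn to scale against distance from the Cd247 start site in kb, with grey bars for the neighbours Creg1 and Pou2f1. Each WT row has 10 peaks and each KO row has 1, inside the widest WT peak, 14.2 kb from the start.

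The neighbours that reach into these territories had few regions. Ube4a had 2 WT-only regions in its territory, one of them the region beyond the end of Cd3g. Pou2f1, the gene for the transcription factor Oct-1, whose end overlaps that of Cd247, had 2, neither of them in the Cd247 territory. Creg1, which encodes a secreted glycoprotein, had 1 peak in each WT library and no reproducible region. No KO peak was called in the territory of these 3 genes.

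Agreement between the WT libraries was counted at each locus. Over Cd3g, Cd3d and Cd3e, all 8 peaks of WT replicate 2 met a peak of WT replicate 1 (exact 95% Clopper-Pearson interval 63.1% to 100%), and 8 of the 11 peaks of WT replicate 1 met one of WT replicate 2 (72.7%; 39.0% to 94.0%). At Cd247, 5 of 10 peaks did so in either direction (50%; 18.7% to 81.3%). The intervals, which cover counting error only, overlap, and the difference between the loci was not tested. Genome-wide the shares were 85.8% of the peaks of WT replicate 2 and 61.5% of those of WT replicate 1. Of the 13 peaks that did not meet one of the other WT list, 5 had the smallest width found in their list, against 2 of the 26 that did. Another 3 of the 13, all of WT replicate 1 at Cd247, were wider than the median of their list, and there the unshared peaks had a median of 506 bp and the shared peaks of 498 bp.

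**Figure D3:**
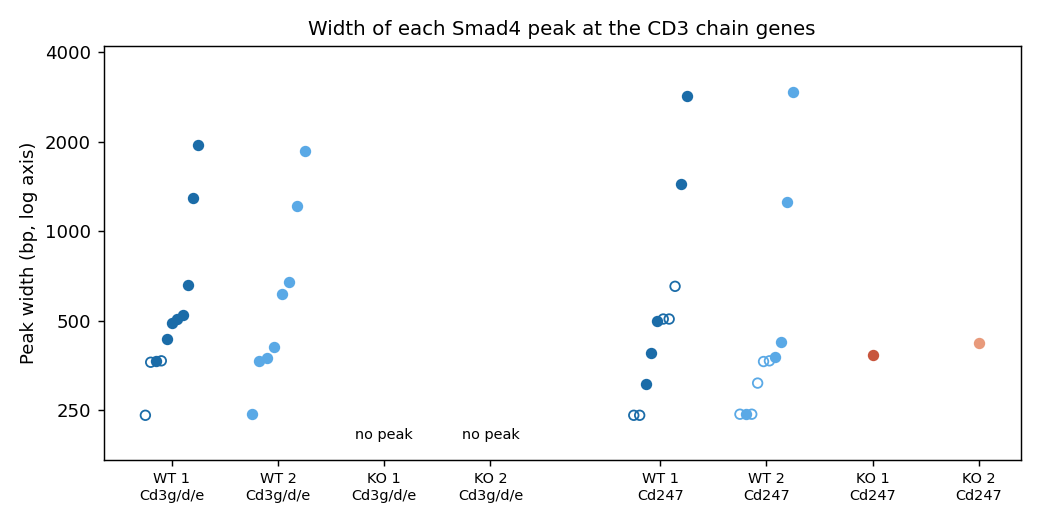
Width of every Smad4 peak at the CD3 chain genes by library and locus, on a log axis in bp, where filled points met a peak of the other WT list (for KO, a WT peak) and open points did not. Open points lie at or below 652 bp, and the KO points at 382 and 420 bp lie far below the WT peaks of 2842 and 2928 bp that hold them. Both KO points exceed the median width of their lists (318 and 294 bp).

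Of the 12 reproducible regions, 4 were among the widest 10% of the genome by summed peak width: the Cd247 region 14.2 kb from the start site, the region over the Cd3g and Cd3d starts, the region at the end of Cd3d and the Cd247 region 56.5 kb from the start site. The region at the Cd3e start came next, and 7 regions lay below the genome-wide median summed width of 1100 bp. Some narrower regions differed between the WT libraries, with 524 against 242 bp inside Cd3g and 490 against 672 bp at the Cd3e start. Of the 10 regions with a single peak in each list, 7 had centres within 100 bp of each other.

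**Figure D4:**
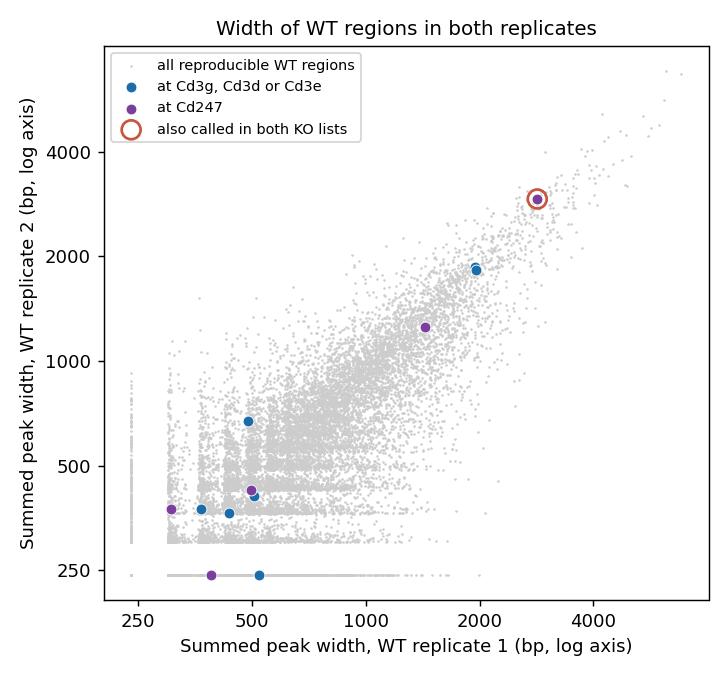
Summed peak width per reproducible region in WT replicate 1 against WT replicate 2, both on log axes in bp, with grey points for all 16501 regions of the genome. The regions at the start sites of Cd3g and Cd3d and at the end of Cd3d nearly coincide at 1950 and 1952 bp in WT replicate 1, and the circled Cd247 region, also called in KO, is the widest of the 12.

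The WT and KO libraries were compared over the joint territories, 60.1 kb on chromosome 9 and 111 kb on chromosome 1. WT replicates 1 and 2 had 21 and 18 peaks there and each KO library had 1. The mean was 19.5 ± 2.12 peaks in WT and 1.00 ± 0 in KO (SD, n = 2 each). Covered length was 14808 and 12494 bp in the WT libraries and 382 and 420 bp in the KO libraries, a mean of 13651 ± 1636 bp against 401 ± 26.9 bp (SD, n = 2 each). The groups did not overlap in either measure, and the 2-sided exact permutation test gave p = 0.33 for each, the smallest that 2 samples against 2 allow. The gap cannot be read as particular to the CD3 genes, because the KO lists were shorter over the whole genome. As a share of each list, these peaks made up 0.0774% and 0.0909% in WT replicates 1 and 2. In KO replicates 1 and 2 the share was 0.177% and 0.236%, each resting on 1 peak. Relative to list length the order was thus the other way round.

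Measured per length and set against all protein-coding genes, Smad4 regions were dense at the cluster. Cd3g had 13.0 WT-only regions per 100 kb of territory, Cd3d 11.9 and Cd3e 9.70, densities that 0.941%, 1.33% and 2.22% of protein-coding genes reached or passed. Cd247 had 3.60 per 100 kb, which 19% of protein-coding genes reached. By plain count, 4.05% of protein-coding genes had at least 4 WT-only regions, as Cd3g and Cd247 did, and 8.32% had at least 3. A WT-only region met the promoter window in 3 of the 4 genes, against 28.1% of the 17492 protein-coding genes with a window in the table. Neighbouring territories share regions, so Cd3g and Cd3d are not independent in these shares.

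Genes that act with the CD3 chains also held Smad4 regions. Of a list of 38 genes of antigen receptor signalling (co-receptors, kinases, adaptors, phosphatases and receptor constant segments), 35 had a WT-only region, against 44.3% of protein-coding genes. This share was not matched on gene length. The median was 5.90 per 100 kb in the list and 0 over all protein-coding genes. Among genes with any WT-only region it was 6.98 in the list and 3.18 over protein-coding genes. The genes without one were Cd8a and Cd8b1, which encode the co-receptor of the CD8 lineage, and Sla2, an adaptor gene with 1 peak in WT replicate 1. Cblb, a ubiquitin ligase gene, held 14 WT-only regions and Ptprc, which encodes the phosphatase CD45, held 13. The median count was 4 in the list and 3.5 in the CD3 chain genes, and 16 list genes had more WT-only regions than every CD3 chain gene. Some list genes were also denser than Cd3g (13.0 per 100 kb), such as Cd2 (25.0), Cd28 (19.2) and Lck (15.5). Others, such as Fyn (4.64), were less dense than each gene of the CD3 cluster. A high density is thus not particular to that cluster. By the widest WT-only region the list was led by the kinase gene Fyn (3428 bp), the adaptor gene Sla (2508 bp), the co-stimulatory receptor gene Cd28 (2448 bp) and the phosphatase gene Ubash3a (1888 bp). The Cd247 region shared with KO, which measured 3199 bp, lay between the first and the second of these. Among regions shared with KO, the widest at a list gene was that of Trac, the constant segment of the receptor alpha chain, at 7018 bp (chr14:54221617-54228634, WT peak widths of 6818 and 6708 bp), and the next, at Ptpn22, measured 1904 bp.

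KO peaks were called at 12 of the 38 list genes, against 2.42% of protein-coding genes, a share not matched on gene length. Like Cd247, Trac and Txk, a Tec family kinase gene, held a region of both KO lists. The Trac region had KO peaks of 468 and 350 bp and the Txk region of 456 and 292 bp. In the remaining 10 genes (Csk, Cd8b1, Fyn, Nck2, Ptpn22, Ptpn6, Ptprc, Sit1, Sla and Trbc2) a single KO library had called peaks. The KO peak counted for Trbc2 (chr6:41554312-41554629) lay beyond its gene body, which ends at 41548181. Those counted for Ptprc, Ptpn6, Sit1 and Cd8b1 also lay outside their gene bodies. So did the Trac region of both KO lists (chr14:54227298-54227765), as the Trac body ends at 54224198. Of the 14 KO regions at the list genes, 12 met a reproducible WT region, and those at Cd8b1 and Fyn did not.

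**Figure D5:**
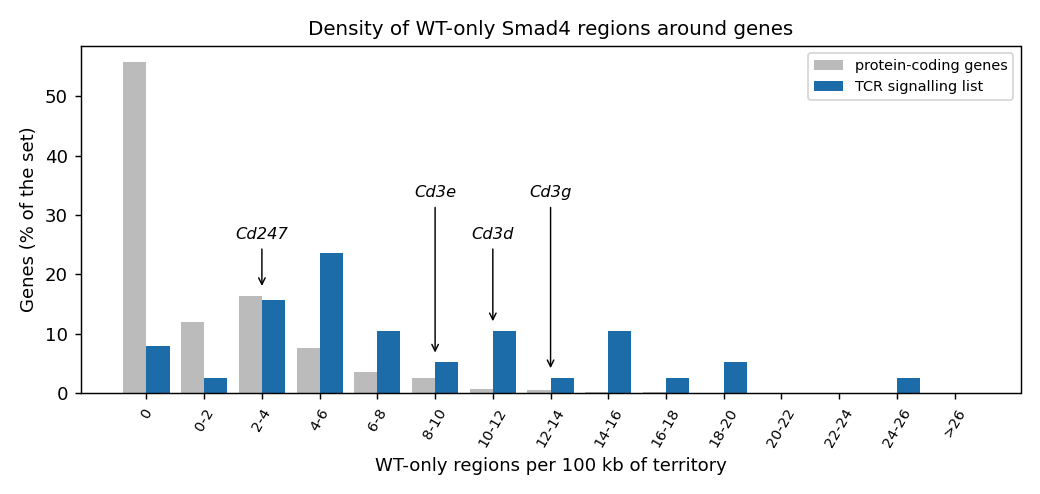
Share of genes, in % of each set, by WT-only regions per 100 kb of territory, for all protein-coding genes (grey) and the 38 genes of antigen receptor signalling (blue), with arrows at the classes that hold the CD3 chain genes. Most protein-coding genes fall in the class of 0, and Cd3e, Cd3d and Cd3g, at 9.70 to 13.0, lie to the right of Cd247 at 3.60.

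Likeness among these genes was measured as the Euclidean distance of log2(1 + covered bp per kb of territory) over the 4 libraries. Nearest to Cd3e was Grap2, an adaptor gene also called Gads (distance 0.0117), with 66.3 and 46.6 covered bp per kb in WT replicates 1 and 2, against 65.8 and 46.8 at Cd3e, followed by Cblb and the inhibitory receptor gene Cd5. Cd28 was nearest to both Cd3d (0.285) and Cd3g (0.379). Cd2, which encodes an adhesion receptor, and Lck followed for Cd3d, and Lck came next for Cd3g. Nearest to Cd247 was Txk at a larger distance (1.28), then Ptprc and the phosphatase gene Ptpn22, which all held a KO peak. The KO libraries enter the distance, and Cd247 had 3.44 and 3.78 covered bp per kb in KO replicates 1 and 2. The measure thus favours genes with a KO peak by construction. With 4 libraries this ranks patterns and carries no test.

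Markers of CD4+ T cells and of other cell types were counted by the same rule. All 6 CD4+ T cell markers (Cd4, Cd2, Cd5, Cd28, Lck and Bcl11b) had WT-only regions and no KO peak. The genome-wide background for such counts was 44.3% for WT-only regions and 2.42% for KO regions of either list. Lacking a KO peak is thus the usual state of a gene. No marker set was tested against this background. Neither CD8 marker had a WT-only region, and Cd8b1 had 1 peak in KO replicate 1. WT-only regions were present at 2 of 5 B cell markers (Cd79a and Pax5), 1 of 5 myeloid markers (Fcer1g) and 2 of 3 NK cell markers (Klrb1c and Tyrobp). At Klrb1c only a WT replicate 2 peak of 242 bp, the smallest width of its list, reached the territory. Some of these encode the counterparts of the CD3 chains in other receptors. Cd79a, a signalling chain of the B cell receptor, had 5 WT-only regions, none of them over its promoter window, while its partner Cd79b had no peak in any library. Fcer1g, the common chain of Fc receptors, had 1 region, and Tyrobp, the adaptor DAP12 of NK and myeloid receptors, had 2. Peaks do not measure expression, so these counts bear on the cell type only indirectly, and the part of other cells in the CD3 peaks was not tested.

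Beyond CAGAC and GGCGC, 6 more motifs were searched on both strands of the 4 promoter windows. CANNTG, the E-box letters, matched 4 times at Cd3g, 2 at Cd3e, 2 at Cd247 and 1 at Cd3d, and is present in 69.0% of promoter windows. TTCNNNGAA, the letters of a STAT site, matched once, at Cd3d, and is present in 7.69% of windows. TGANTCA (AP-1 letters, in 6.99% of windows), CCGGAA (ETS letters, 18.7%), TGTGGT (RUNX letters, 14.97%) and GTCTAGAC (the palindromic SMAD element, 0.226%) matched in none of the 4 windows. Only these exact letters were searched. Other spellings of such sites were not counted, so the windows cannot be said to lack ETS, RUNX or AP-1 sites. The promoter that no peak met, that of Cd247, thus held as many CAGAC matches as the Cd3g and Cd3d windows together, and these matches are a description of the letters only.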

How the data were processed

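Smad4 ChIP-seq was analysed in 2 WT and 2 KO samples. The 4 input samples were not analysed here. The authors deposited 1 peak list per library as chromosome, start and end, without other values. Per the submitters' processing notes, the tools were HOMER 4.8.3, Bowtie and Trim Galore, with no role stated, and the build was mm10. How peaks were called and filtered, and whether input was used, is not given in the sources used here. Read depth is therefore unknown, and a library with more reads can yield more and wider peaks.

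Positions are 1-based on mm10. Gene bounds came from RefSeq on GRCm38.p6, the same assembly, leaving out genes that start below 3 Mb on chromosomes other than Y. Promoter sequences, with their strands, are also from RefSeq on GRCm38.p6, and all 4 members matched by symbol. Merging was tested on simulated peak lists. Whether replicates came from separate animals is not stated, so the p-values bear on these samples only. Each is the smallest that its test allows and does not measure the spread between samples.

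The members and lists were chosen with earlier results of these data known. Genes named are the 4 members, protein-coding genes that meet their territories, and, from the signalling list, the 3 nearest to each member, the 4 with the widest WT-only region and those with a KO region. A gene that this rule takes is not reported here. Related signalling chains, the 2 list genes with most regions and those without one were also named, the latter after their values were seen. Replicate numbers are shared between WT and KO, with nothing in the labels on what they pair. The software was SciPy 1.17.1, pandas 2.3.3 and numpy 2.4.6 under Python 3.11.15, with matplotlib 3.10.9 for figures.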

Additional observations from a re-analysis of the deposited data

How the results depend on the processing

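The count of WT-only regions over the 4 genes, 11, stayed between 9 and 11 under 9 of 13 alternatives. It was 7 with peak centres within 100 bp and 4 with the upper part of each list by width, both stricter by construction. Leaving out 1 library gave 11 to 20, with 17 without WT replicate 1 and 20 without WT replicate 2, where regions rest on a single WT list. The count of regions also called in KO fell to 0 with an overlap of 50% of both, which KO peaks this narrow cannot meet in so wide a region. That rule counted the region as WT-only, giving 5 at Cd247 against 4, and the total of 10 WT-only regions under it includes this one. It left 1 WT-only region at Cd3d against 3 and 2 at Cd3g against 4. The region over the Cd3g and Cd3d starts did not pass it. The count of regions also called in KO was also 0 with centres within 100 bp, since the WT centres of the Cd247 region are 314 bp apart. It was 2 with KO peaks within 1 kb. Without each library in turn this count stayed at 1. At Cd3d the rule on centres left 0 WT-only regions. The region inside Cd3g, which also counts for Cd3d, had centres 322 bp apart. Those at the start sites and at the end of Cd3d each held 2 peaks in 1 WT list and 1 in the other. Territories of 20 kb on each side added no distinct region. With the replicate number as a block, the count was 11, the region also in KO 1, the list count 35, the mean WT minus KO difference 18.5 peaks and 13250 bp, and the exact permutation p 0.5, the smallest for 2 pairs. Replicate differences in WT and KO had a correlation of 0.0633 across genes, and no pairing was assumed. The difference in peak number was 17.0 to 20.0 without each library, 8 for the wider peaks and 15.0 for the gene body alone. That in covered length was 12093 to 14407 bp without each library, 9801 bp for the wider peaks and 11939 bp for the gene body alone. The list count was 35 to 37 without each library and 31 to 36 otherwise. Read depth is unknown, and its part in the counts was not tested.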
